A study of Macrobrachium nipponense with 6 samples.

Results

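The resting microRNA content of Macrobrachium nipponense, the oriental river prawn, was read from the 3 arrays of prawns kept in normoxic water, out of 6 arrays in the series. The prawns had been held for 24 h at 6.5 ± 0.2 mg O2 per L. Each array was hybridised with Cy3-labelled total RNA from a pool of muscle, gill, hemocytes and hepatopancreas, so each value is a level over those tissues. The 3 samples are called normoxia 1, 2 and 3 after their labels. Whether each came from its own animals is not stated there, so the spread between them may be technical. All 2546 miRNA probes of the array were read, each on 1 spot, and no use was made of the hypoxic arrays in any value given here except 1 alternative scaling.

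A miRNA is a short RNA cut from a hairpin precursor, which has a 5p and a 3p arm. It guides Argonaute proteins to messenger RNAs mainly through its seed, the bases 2 to 8 from the 5′ end, and usually 1 arm is kept while the other is degraded. Many miRNAs are shared by insects, crustaceans and vertebrates, and some of them are known as strongly tissue-bound, such as miR-1 in muscle and miR-124 in neurons. Most probes are named after miRNAs of other arthropods. The first letters of such a name give the species (dme for the fruit fly Drosophila melanogaster, tca for the beetle Tribolium castaneum, dpu for the water flea Daphnia pulex, ame for the honey bee, api for the pea aphid, bmo for the silkworm). A suffix such as R+1 or 1ss13AT marks an end or a base that differs from the listed miRNA. Names starting with PC mark candidates predicted from precursors. Genome positions in the prawn were not used here.

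Targets of widely shared families, bright and intermediate, are shown to identify what the named probes read. They are a selection and not the order of brightness, written 5′ to 3′ as the array's files give them, with the seed in capitals.
aae-miR-276-3p: uAGGAACUucauaccgugcuc
cqu-miR-276-5p: aGCGAGGUauagaguuccu
tca-miR-100-5p: aACCCGUAgauccgaacuuguggg
isc-let-7_R+1: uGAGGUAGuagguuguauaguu
ame-bantam: uGAGAUCAuugugaaagcugauu
cqu-miR-305-5p: aUUGUACUucaucaggugcucu
aga-miR-275_1ss13AT: uCAGGUACcugauguagcgcgcg
tca-miR-279b-3p_R+2_1ss17CT: uGACUAGAuccacacuuauccaaa
tca-miR-12-5p: uGAGUAUUacaucagguacug
ame-miR-87: gUGAGCAAaguuucaggugu
ame-miR-317: uGAACACAgcuggugguaucucagu
tur-miR-34-5p: uGGCAGUGugguuagcugguu
tca-miR-9e-5p_R+2_1ss16TC: uCUUUGGUgaucuagcuguauga
dpu-miR-9-3p_R-1: aUAAAGCUagguuaccaaaguu

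A probe counted as detected when its intensity above the local background exceeded 3 standard deviations of the empty spots. Detected probes numbered 545 on normoxia 1, 1001 on normoxia 2 and 342 on normoxia 3. The limits were 35.6, 67.6 and 94.5 intensity units in the same order. Normoxia 2 alone held 567 probes that no other array detected, against 120 for normoxia 1 and 11 for normoxia 3, and those 567 had a median of 85.1 units, close above the limit. All 3 arrays detected 316 probes, 12.4% of the 2546. Another 121 were detected on 2 arrays and 698 on 1 array, and 1411 probes (55.4%) were detected on none. By stem, meaning all probes that share a family number, 65 of 1026 had a probe detected on all 3 arrays. Without normoxia 3, the array with the highest limit, 126 stems had one on both remaining arrays. No probe of 500 stems was detected anywhere.

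These are divided into classes by brightness. Bright probes lay among the 100 brightest on every array, 75 probes (2.95%) from 21 stems. Intermediate probes were detected on all 3 arrays without being bright, 241 probes from 58 stems. The 819 probes (32.2%) detected on 1 or 2 arrays were called variable. Levels are log2 of background-corrected, quantile-normalized intensity, and they are probe brightness rather than molecule numbers, because probes differ in how well they bind. The order of probes is thus an order of signals. Bright probes had mean levels between 11.58 and 15.86, intermediate probes between 7.45 and 12.73, and undetected probes between 6.18 and 7.0. An undetected probe is below the limit of these arrays, which does not show that its miRNA was absent.

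The signal was concentrated. The 10 brightest probes held 28.5% of the summed background-subtracted signal on normoxia 1, 21.6% on normoxia 2 and 25.7% on normoxia 3. For the 100 brightest the shares were 78.0%, 69.9% and 79.8%. The standard deviation (SD) between the 3 arrays had a median of 0.13 over bright probes and 0.28 over all 316 detected probes. The class rule removes probes that are dim on any array, and quantile normalization evens the top ranks, so this difference is no measure of repeatability. As a description across the 316 probes, the levels correlated with r of 0.867 between normoxia 1 and 2, 0.870 between normoxia 1 and 3 and 0.906 between normoxia 2 and 3. These probes are not independent, since many share a target family.

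**Figure D1:**
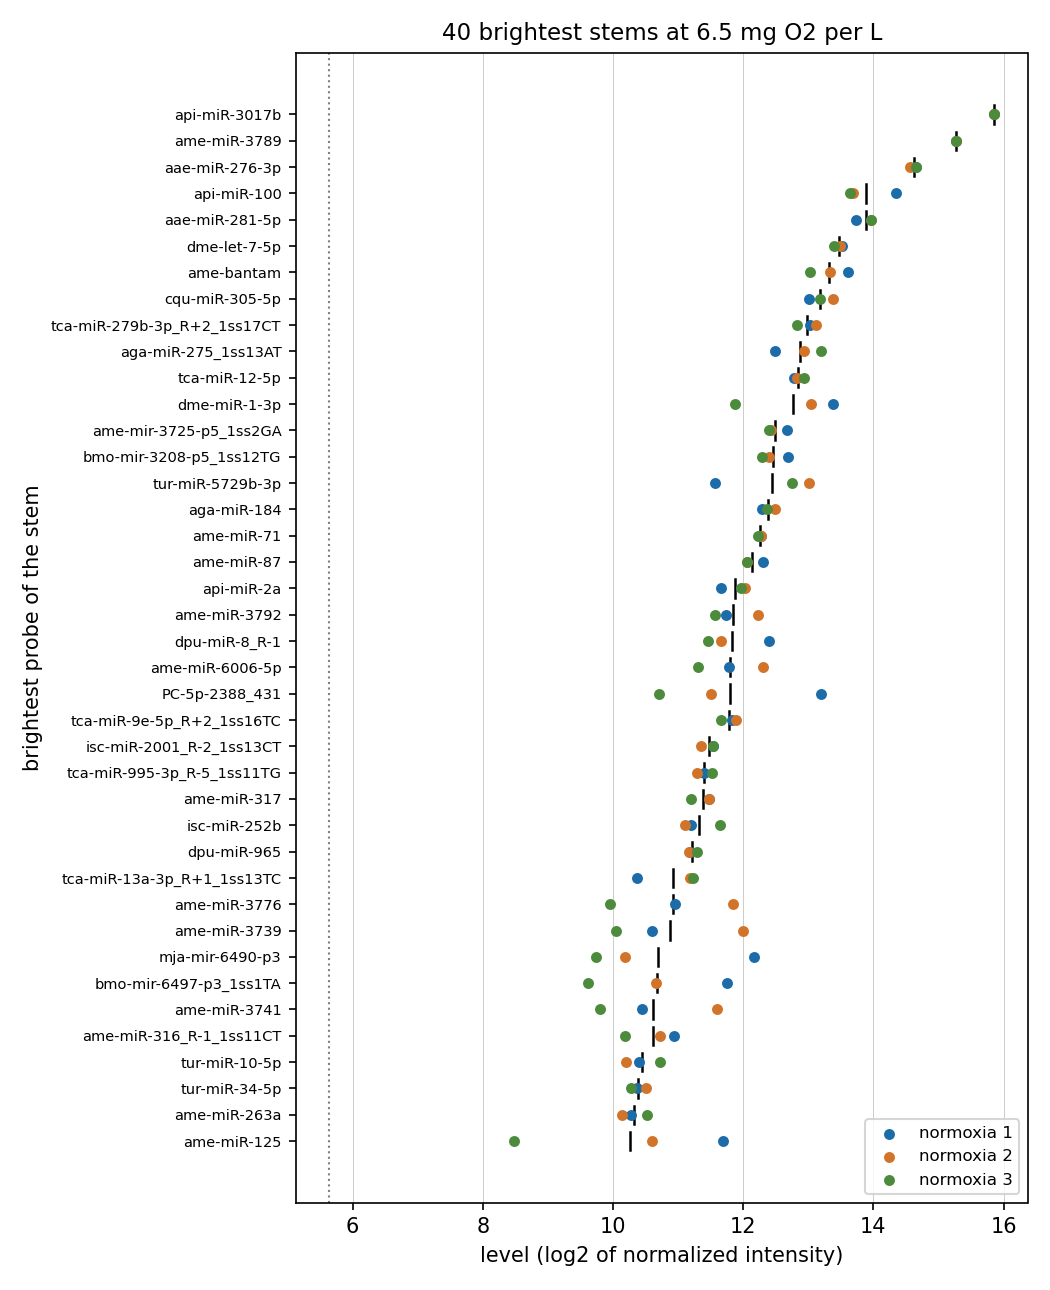
Level of the brightest probe (all probes named PC count as 1 stem) on each normoxia array, for the 40 stems with the highest mean among probes detected on all 3 arrays. Points are single arrays, black ticks their mean, and the dotted line is the floor of the scale, log2 of the offset 50 (5.64). From aae-miR-276-3p (14.63) down to ame-miR-87 (12.14) most points of a stem lie close together, while dme-miR-1-3p, PC-5p-2388_431 and ame-miR-125 spread widely.

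The 2 brightest probes were named after miRNAs of 1 species each, the pea aphid and the honey bee, and no role is given for them here. The probe api-miR-3017b had background-subtracted intensities of 57559, 61956 and 58127 on normoxia 1, 2 and 3. The probe ame-miR-3789 followed with 43720, 48165 and 26640. Both held ranks 1 and 2 on every array, so quantile normalization gave each the same log2 level on all arrays, 15.86 and 15.27, with an SD of 0 by construction. A second miR-3017 probe, api-miR-3017a, differs from api-miR-3017b by 3 substitutions and was detected on no array (mean level 6.54). The targets of the 2 brightest probes are shown because they top the array while no other species on it shares the name. Bases 2 to 8 are in capitals.
api-miR-3017b: cGGUCUGUcacggaacacggga
ame-miR-3789: aUCUGGUGcucggugaggugag

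Below these came miRNAs shared widely among arthropods. The 3p arm of miR-276, which in the fly acts in olfactory memory, was read by aae-miR-276-3p at 14.66, 14.56 and 14.66 (mean 14.63 ± 0.06, SD, n = 3). Of its 18 probes, 14 were detected on all 3 arrays and 5 were bright. The miR-281 probe aae-miR-281-5p had 13.74, 13.96 and 13.96 (13.89 ± 0.13), and 18 of 21 miR-281 probes were detected on all arrays, 10 of them bright. That is the highest number of bright probes of any stem. No miR-281 probe was missed on every array.

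The let-7 cluster encodes let-7, miR-100 and miR-125, which in the fly come from 1 transcript and time the transition to the adult. Its 35 probes had 21 detected on all 3 arrays (60%), 13 of them bright. The probe api-miR-100 had levels of 14.35, 13.68 and 13.64 (13.89 ± 0.40), and dme-let-7-5p had 13.52, 13.49 and 13.39 (13.47 ± 0.06). The third member was dimmer and far less even. For ame-miR-125 the levels were 11.69, 10.60 and 8.48 (10.26 ± 1.63), highest on normoxia 1 and lowest on normoxia 3.

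Bantam, which promotes growth and blocks cell death in the fly, was read by ame-bantam at 13.61, 13.33 and 13.02 (13.32 ± 0.29). Of 11 bantam probes, 6 were detected on no array, near the 55.4% of all probes. The pair miR-275 and miR-305 lies in 1 cluster in insects, and miR-275 is needed for blood meal digestion in mosquitoes. The probe cqu-miR-305-5p averaged 13.19 ± 0.18 and aga-miR-275_1ss13AT 12.87 ± 0.36. Of the pair's 25 probes, 14 were detected on all arrays and 6 were bright. The miR-279 probe tca-miR-279b-3p_R+2_1ss17CT averaged 12.99 ± 0.15. This miRNA limits the formation of CO2-sensing neurons in the fly. Of its 32 probes, 9 were detected on all arrays, against 12.4% of all probes. Another 18 were detected on none, again near the 55.4% of all probes.

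Among the remaining bright families, tca-miR-12-5p had 12.79, 12.82 and 12.94 (12.85 ± 0.08). Of its cluster partners in the fly genome, 0 of 12 miR-283 probes were detected on all 3 arrays and 5 on 1 or 2. All 3 miR-304 probes were below the limit everywhere. Over all probes, 12.4% were detected on all 3 arrays, 32.2% on 1 or 2 and 55.4% on none. The probe aga-miR-184 averaged 12.38 ± 0.10, for a miRNA that acts in fly oogenesis. The probe ame-miR-71 had 12.27, 12.27 and 12.23 (12.26 ± 0.02), among the most even of the named probes. miR-71 extends lifespan in the worm and is missing from vertebrates. Here 10 of its 12 probes were detected on all arrays. For ame-miR-87, which acts in dendrite regrowth of fly neurons, the mean was 12.14 ± 0.14, and 7 of its 17 probes were bright. The miR-2 family represses cell death genes in the fly. It was read by api-miR-2a at 11.88 ± 0.20, with 31 of 50 miR-2 probes detected on all arrays.

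A group of probes stayed below the bright class on at least 1 array but was detected on all. The miR-8 probe dpu-miR-8_R-1 had 12.40, 11.65 and 11.45 (11.83 ± 0.50). In the fat body of the fly, miR-8 tunes insulin signalling. Of the miR-34 cluster, ame-miR-317 averaged 11.38 ± 0.16 and tur-miR-34-5p, whose miRNA is linked to ageing of the fly brain, 10.39 ± 0.11. The third partner, miR-277, acts in amino acid breakdown in the fly. None of its 7 probes was detected on all 3 arrays, where all probes had 12.4%. Its brightest, dsi-miR-277, averaged 7.11 ± 0.04.

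Further intermediate families filled the range down to the limit. The miR-252 probe isc-miR-252b averaged 11.31 ± 0.28 and the miR-965 probe dpu-miR-965 11.21 ± 0.07. The miR-13 probe tca-miR-13a-3p_R+1_1ss13TC, of the miR-2 seed family, averaged 10.93 ± 0.49. The miR-10 probe tur-miR-10-5p averaged 10.44 ± 0.26, and 9 of 10 miR-10 probes were detected on all arrays. miR-10 sits in the Hox cluster. Of its neighbours, 0 of 4 iab-4, 0 of 7 iab-8 and 0 of 18 miR-993 probes were detected on all arrays, against 12.4% of all probes. With so few probes the first 2 counts lie near that share. On 1 or 2 arrays, 2 of the iab-4, 4 of the iab-8 and 8 of the miR-993 probes were detected, against 32.2% of all probes.

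Lower still, ame-miR-263a averaged 10.32 ± 0.19 for a miRNA that protects fly sense organs from cell death. The probe dpu-miR-307_R+1 had 10.16 ± 0.07, bmo-miR-190-5p 9.94 ± 0.31, mse-miR-285_R-2_1ss10TG of the miR-29 seed family 9.82 ± 0.09 and ame-miR-193 9.54 ± 0.25. The miR-92 family reached 9.01 ± 0.03 (dan-miR-311b_R-2_1ss9AT) and 8.69 ± 0.63 (tca-miR-92a-3p). The miR-79 probe bmo-miR-79-3p averaged 8.66 ± 0.38, and tca-miR-7-5p 8.14 ± 0.11. The dimmest probes detected on all arrays were dme-mir-4968-p3_2ss6GA19AG at 7.45, dme-miR-7-5p at 7.48 and dpe-miR-100 at 7.54. Just outside the limit, the brightest probes detected on no array were dme-miR-2492-5p at 7.0 and dme-miR-1000-5p_R+1 and tca-miR-9b-5p, both at 6.99. The levels on both sides of the limit thus lie close together.

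**Figure D2:**
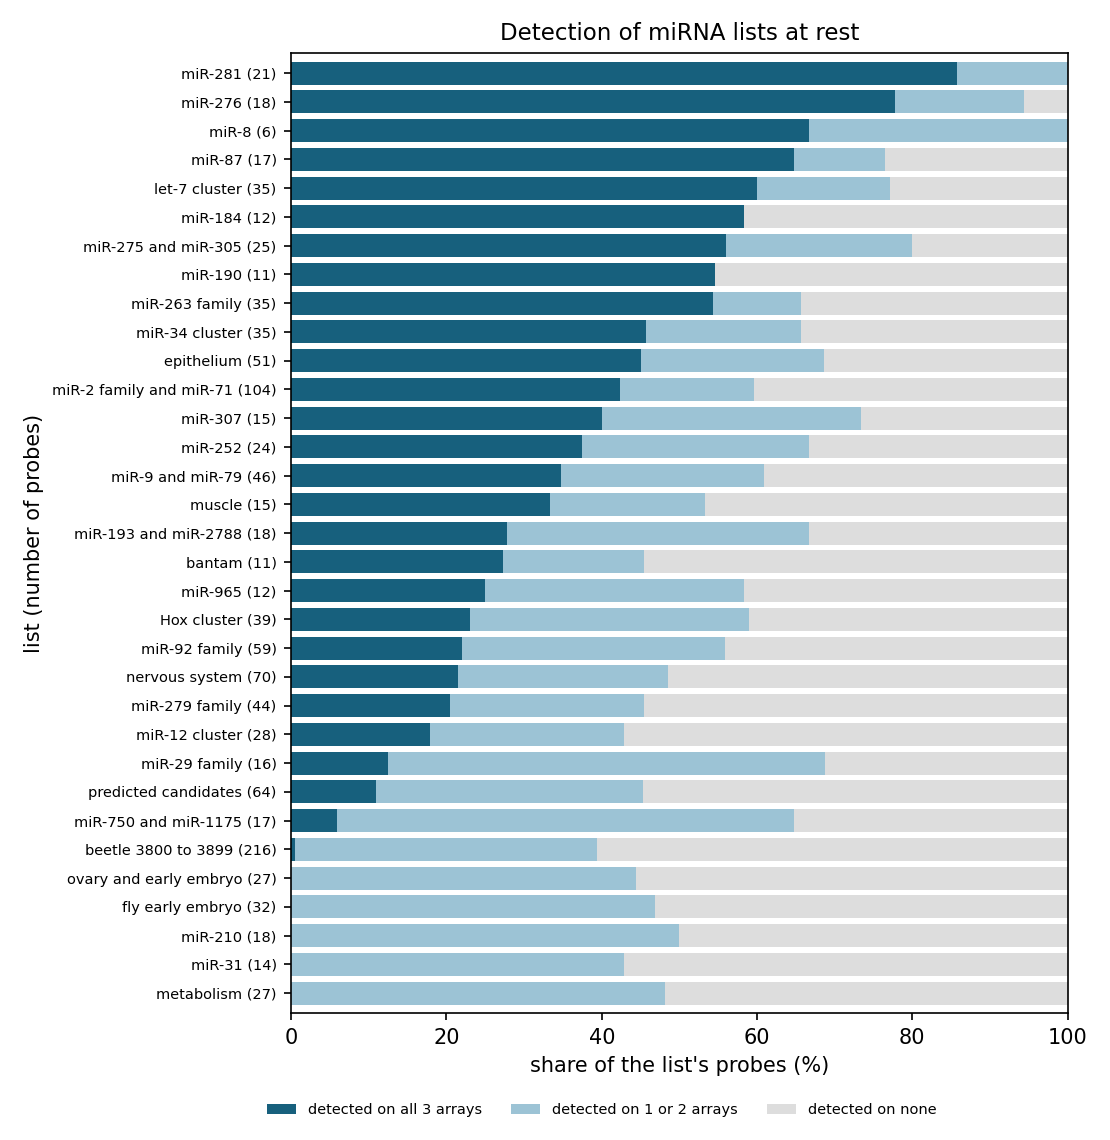
Share of the probes of each miRNA list detected on all 3 normoxia arrays, on 1 or 2, or on none, with the number of probes in brackets. The lists of miR-281 (85.7%) and miR-276 (77.8%) stand at the top, and 5 lists had no probe detected on all 3 arrays.

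Markers of single tissues were set beside the pooled label. The muscle miRNA miR-1 was bright: dme-miR-1-3p had 13.37, 13.05 and 11.87 (12.76 ± 0.79), and isc-miR-1_1ss1TG had 13.28, 12.69 and 11.50 (12.49 ± 0.91). Both were lowest on normoxia 3. The other muscle miRNA, miR-133, was dimmer, with hme-miR-133 at 9.0, 9.39 and 8.11 (8.83 ± 0.66), and was again lowest on normoxia 3. Of the 15 muscle probes, 5 were detected on all arrays and 7 on none, against 12.4% and 55.4% of all probes. Fewer cells of a tissue in the pool and less of a miRNA per cell cannot be told apart in such samples, and the part of the pool's make-up in these differences was not tested. No marker list for gill, hepatopancreas or hemocytes was set, so those tissues were not checked.

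Of the nervous system list, all 8 miR-124 probes were below the limit on every array, with mean levels of at most 6.79 (aae-miR-124). No probe of miR-137 (10 probes) or miR-219 (5 probes) was detected on all arrays. The same list holds miR-9, which in the fly also limits the number of sensory organ precursors and was bright in its 5p arm (tca-miR-9e-5p_R+2_1ss16TC, 11.79 ± 0.12), and miR-7. The epithelium list had 23 of 51 probes detected on all arrays, through miR-8 and miR-263, while 0 of 14 miR-31 probes were. For ovary and early embryo of the fly, 0 of 27 probes were detected on all arrays, 12 on 1 or 2 and 15 on none. The last include all 3 miR-318 probes. Over all probes, 12.4% were detected on all arrays, 32.2% on 1 or 2 and 55.4% on none. The 15 lie near the share detected on none. With so few probes, the counts of 0 for miR-137, miR-219 and miR-31 lie near the 12.4%. The array held no probe for miR-122, miR-451, miR-144, miR-223, miR-206 or miR-183.

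The metabolic miRNAs miR-278, miR-14 and miR-33 act in energy balance and fat metabolism of flies or, for miR-33, of vertebrates. They had 0 of 27 probes detected on all arrays and 13 on 1 or 2 arrays, where all probes had 12.4% and 32.2%. The brightest was aae-miR-278-3p_1ss12TC, with 102.7, 191.9 and 78.0 intensity units. It passed the limit on normoxia 1 and 2 but not on normoxia 3, and all 5 miR-14 probes were below the limit everywhere. For miR-210, which responds to low oxygen in mammals, 0 of 18 probes were detected on all arrays and 9 on 1 or 2 arrays. The shares of all probes were 12.4% and 32.2%. The brightest passed on 1 array (aga-miR-210_L+1R+3_1ss16AG with 180.9 units on normoxia 2).

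In all, 33 of 168 stems with at least 3 probes had none detected on any array. Over all 1026 stems the count was 500, and 55.4% of all probes were detected on none. The largest of them were miR-980 with 10 probes, miR-124 with 8, and miR-988, miR-998 and miR-3811 with 7 each. The 7 miR-3811 probes come from the beetle. The block of names from miR-3800 to miR-3899, nearly all of the beetle, had 1 of 216 probes detected on all arrays, tca-miR-3842-5p (7.77 ± 0.52). The 64 predicted candidates had 7 probes detected on all arrays (10.9%), near the 12.4% of all probes. The brightest, PC-5p-2388_431, had 13.20, 11.50 and 10.70 (11.80 ± 1.28), highest on normoxia 1 and lowest on normoxia 3. The same held for PC-5p-16770_62 with 12.23, 9.90 and 9.19.

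The arms of a hairpin were compared within 42 stems that had probes named for both arms and at least 1 of them detected on all arrays. As a description, the brightest 5p probe lay above the brightest 3p probe on every array in 19 stems and below it in 21, with 2 mixed. In 34 stems only 1 arm was detected on all arrays, 5p in 14 and 3p in 20. For miR-100, tca-miR-100-5p had 13.72 ± 0.06, while tca-miR-100-3p was below the limit on every array (6.65 ± 0.38). The 5p arm was likewise bright in miR-305 and miR-12, with the brightest 3p probe detected on 1 array for miR-305 and on none for miR-12. In let-7 both arms were detected on all arrays, at 13.47 ± 0.06 for 5p and 7.89 ± 0.20 for 3p. The 3p arm was the bright one in miR-279 (12.99 ± 0.15), miR-1 (12.76 ± 0.79) and miR-184 (12.18 ± 0.22). In each of these the 5p probe with the highest mean level was below the limit on every array. An arm below the limit has only an upper bound, so no size is given for these differences. Arms of 1 stem have different probes, and the part of their binding strength in these differences was not tested.

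In 8 stems both arms were detected on all arrays. For miR-276 the 3p probe aae-miR-276-3p had 14.63 ± 0.06 and the 5p probe dwi-miR-276b-5p 10.82 ± 0.42. miR-281 had 13.89 ± 0.13 for 5p and 12.19 ± 0.07 for 3p, the brightest weaker arm among the 8. For miR-9, 5p averaged 11.79 ± 0.12 and 3p 11.10 ± 0.18, and for miR-10 they averaged 10.44 ± 0.26 and 9.77 ± 0.14. The gaps were 0.68 and 0.67. They are gaps between different probes and do not rank the arms by amount. The other stems were miR-71, miR-8, let-7 and miR-6497.

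**Figure D3:**
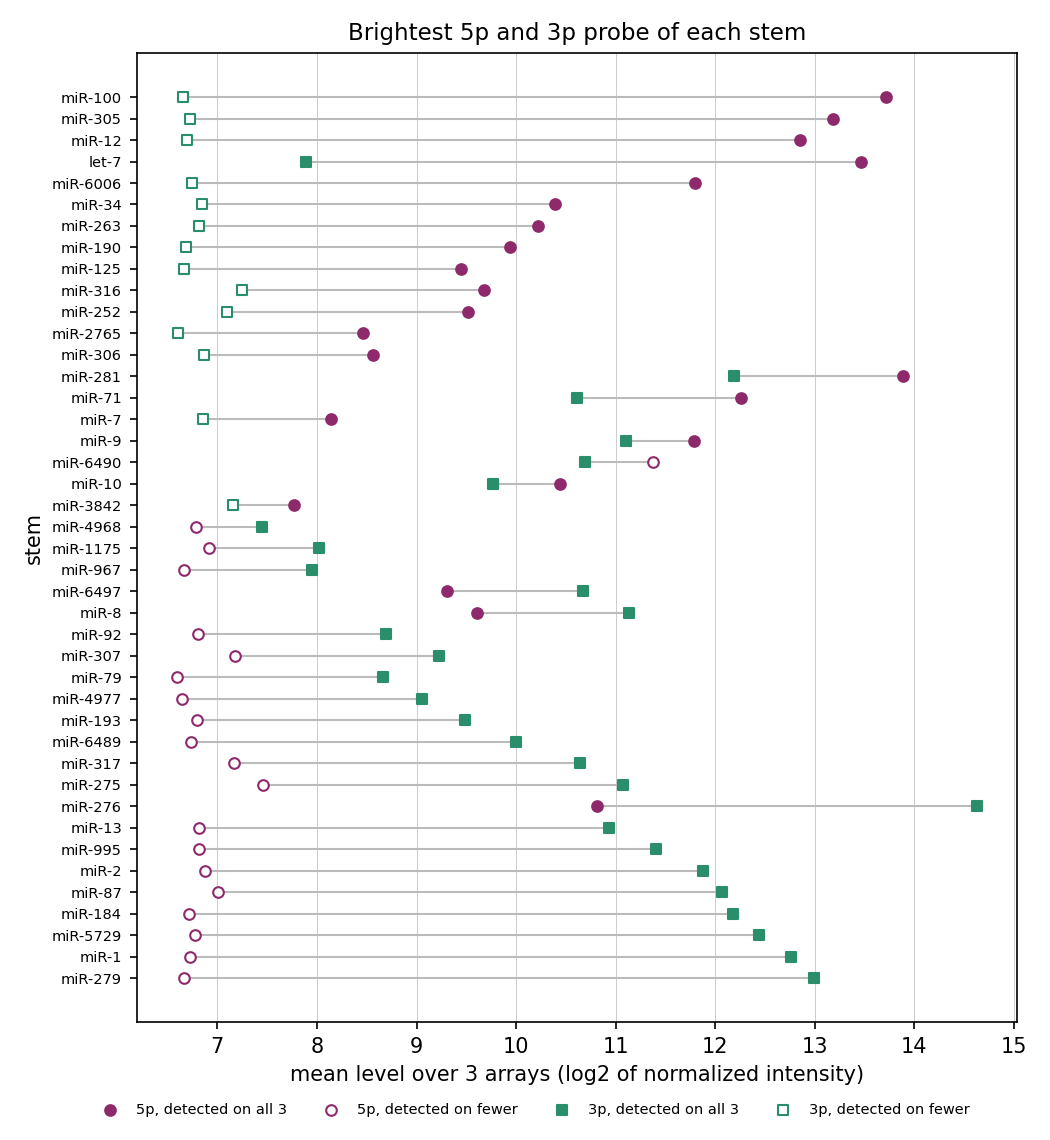
Mean level over the 3 normoxia arrays of the brightest 5p probe (circles) and 3p probe (squares) of 42 stems, ordered by their difference. Filled marks were detected on all 3 arrays and open marks on fewer. Most stems pair 1 filled mark with an open mark near 6.7, and miR-281, miR-71, miR-9 and miR-10 have both marks filled.

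Seeds gather probes that would share targets. The 2546 probes had 1696 distinct seeds, and the 316 detected ones had 119. Of those, 27 seeds with at least 5 detected probes held 195 of the 316. The seed AUCACAG of miR-2 and miR-13 was the largest, with 23 of 52 probes detected on all arrays. The 29 others came from miR-2 and miR-13 and from miR-5, miR-6, miR-11, miR-308 and miR-2944. The seed of let-7 (GAGGUAG) had 5 of 6 probes detected on all arrays, all 5 bright, and the seed of miR-71 (GAAAGAC) had 5 of 5. The miR-92 seed AUUGCAC had 10 of 41, none of them bright. Over all probes, 12.4% were detected on all arrays and 2.95% were bright. The miR-92 seed thus lay below the let-7 and miR-71 seeds in detection but above the share of all probes. With 41 probes, the lack of bright ones lies near the 2.95%.

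Probes of 1 family that differ in a few bases serve as a check of how far names can be read as prawn sequences. In 17 stems, 161 probes were close to a brighter reference probe of the same stem. The reference was mostly the stem's brightest probe, but for miR-281 3p probes it was bmo-miR-281-3p, and some miR-279 and miR-71 probes also had another. The groups below were set after their levels were seen. Where only the ends differed, 34 probes had a median level 0.17 below the reference, written as a difference of -0.17. A single substitution in the outer 4 bases gave -0.50 (31 probes), and one at least 5 bases from an end gave -2.37 (42 probes). With 2 substitutions, 5 of 22 probes lay within 2-fold of the reference and 6 were not detected on all arrays. With 3 or more, 0 of 13 lay within 2-fold and 10 were not detected on all arrays, so that their differences mostly reach down to the floor of the scale. Since the reference is the brighter probe of each pair, every difference is below 0 by construction.

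The miR-100 targets below differ at their ends. The stretch in capitals is the shared ACCCGUA, and the base before it is g in the first and a in the others. The others were therefore counted with the single substitutions in the outer 4 bases.
api-miR-100: gACCCGUAgauccgaacuugug
aae-miR-100_L+2: gcaACCCGUAgauccgaacuugug
ame-miR-100_L+4: aacuaACCCGUAgauccgaacuugug
dpu-miR-100_R-2: aACCCGUAgauccgaacuugu
Their mean levels were 13.89 ± 0.40, 13.63 ± 0.10, 13.54 ± 0.18 and 13.64 ± 0.04. They span 21 to 26 bases. The longest differed from the first by -1.02, -0.025 and -0.015 on normoxia 1, 2 and 3 (mean -0.35), so the gap lay mostly on normoxia 1.

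Some bantam and let-7 targets differ by 1 base. Positions are counted from 1 at the 5′ end of the brightest target, and the capital marks the base that differs from it.
ame-bantam: ugagaucauugugaaagcugauu
api-bantam: ugagaucauugugaaagcuAauu
dme-bantam-3p: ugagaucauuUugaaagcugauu
dme-let-7-5p: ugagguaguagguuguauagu
aae-let-7: ugagguaguUgguuguauagu
The change G20A of api-bantam came with a level of 12.79, 0.53 below ame-bantam (difference -0.53). With G11U, dme-bantam-3p was detected on no array (6.81), so only the loss of detection can be stated. With A10U, aae-let-7 had a level of 7.56 and was detected on 2 arrays, against 13.47 for dme-let-7-5p. Other probes with a change near the middle stayed detected on all arrays. In miR-12, bmo-miR-12 with A11U differed by -0.37 from tca-miR-12-5p, and in miR-87, hme-miR-87 with G10C differed by -0.50 from ame-miR-87.

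**Figure D4:**
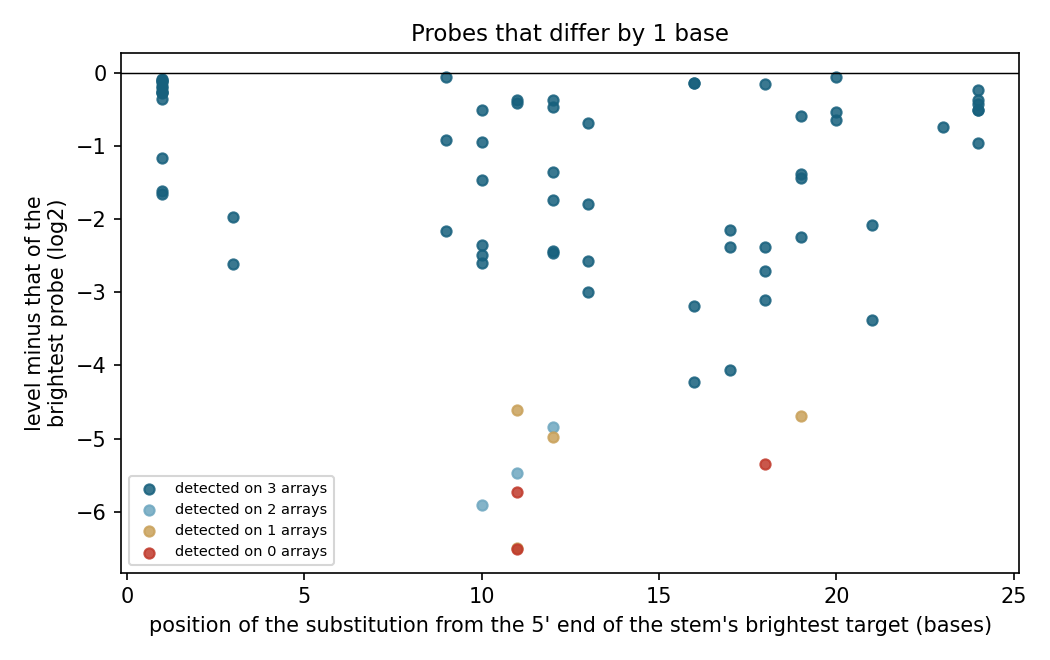
Level of 73 probes with 1 substitution against the brighter reference probe of their stem, as the difference in mean log2 level, against the position of that base from the 5′ end. Colours give the number of arrays that detected the probe. All points below -4.5 have their base between positions 10 and 19, where points near 0 occur too. The differences of probes detected on fewer than 3 arrays are bounded by the floor of the scale.

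The share detected also differed with how widely a name is shared. Stems with probes from 10 or more species prefixes had 45.1% of 388 probes detected on all arrays, against 2.14% of 1311 probes for stems with a single prefix. Between the crustacean prefixes, dpu of the water flea had 19 of 39 probes (48.7%) and mja of the kuruma shrimp, a decapod, 2 of 13 (15.4%). Probes whose name carries a suffix had 107 of 180 (59.4%), and those without had 209 of 2366 (8.83%). GC content and mean level had a rank correlation of 0.03 over the 2546 probes, most of which were not detected on all arrays. Over the 316 probes detected on all 3 arrays it was -0.18, and that of purine content was 0.19. The share detected was 3.98% below 30% GC, 16.7% from 40 to under 50% GC and 5.0% at 60% GC or more.

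The single-species probes that did light up often held purine runs, a feature noticed after their levels were seen. The run GAGAGA, searched on the target strand, occurs in 17 of the 2546 targets (0.668%). Of those, 11 were detected on all 3 arrays (64.7%), against 12.1% of the others. The reverse complement UCUCUC occurs in 15 targets, with 1 detected on all arrays. Probes with the run make up 10 of the 28 detected probes of single-species stems. The targets of the bright ones are shown, with each GAGAGA in capitals.
ame-mir-3725-p5_1ss2GA: gaaaGAGAGAGAGAGAGA
bmo-mir-3208-p5_1ss12TG: aGAGAGAGAGAGAGAGAg
bmo-miR-3208: cgucgaggaaaGAGAGAGAGAu
ame-miR-3792: gacugaggaaaGAGAGAagga
The mean levels of these 4 were 12.50 ± 0.15, 12.46 ± 0.21, 12.24 ± 0.11 and 11.85 ± 0.35. The 7 intermediate probes with the run were highest on normoxia 2, as were bmo-miR-3208 and ame-miR-3792 among the bright ones. Examples are ame-miR-3741 with 10.45, 11.60 and 9.80 and ame-miR-3776 with 10.96, 11.84 and 9.96. Which RNA these probes bound was not tested.

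Some probes were far lower on 1 array than on the other 2. A search made after the levels were seen took probes within the 100 brightest on 2 arrays and more than 2 log2 units lower on the third, and found 7. The largest gap was in bmo-miR-276-3p, with 34.7 intensity units on normoxia 1, below the limit, against 28783 and 24047 on normoxia 2 and 3. On normoxia 1, aae-miR-276-3p, which differs from it only at an end, had 21876 units. The probe mja-mir-6490-p5_1ss3CA had 12129 and 12209 units on normoxia 1 and 3 but 52.0 on normoxia 2. In the same way cqu-miR-100-5p_L+3 and dpu-miR-100 were low on normoxia 1, lmi-miR-281-5p_R+4 and aae-miR-100 on normoxia 2 and dme-miR-275-3p on normoxia 3. A different case was isc-miR-2b, with 8.76, 7.08 and 12.49, which was bright on normoxia 3 only. Control reporters have several spots per array. Over the 3 arrays, reporters with a median of at least 1000 units had 368 spots, of which 16 (4.35%) lay more than 2-fold below their reporter's median on the same array. This rule works within an array and uses a smaller gap than the search above, so the counts cannot be compared. What lowered the 7 probes was not tested.

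**Figure D5:**
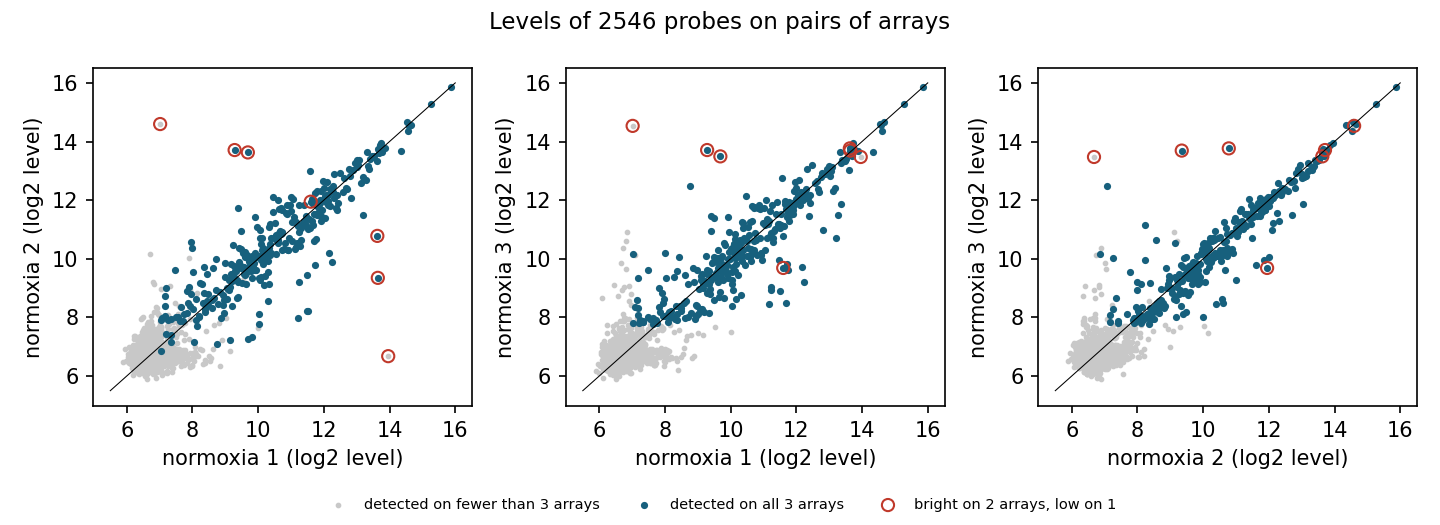
Log2 levels of the 2546 probes on each pair of normoxia arrays, with the line of equal levels. Blue points were detected on all 3 arrays, grey points on fewer, and red circles mark the 7 probes that were bright on 2 arrays and low on the third.

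Some miRNAs that are clustered in insects differed widely between the arrays. The probe ame-miR-750 had 15.2, 82.5 and 1128 intensity units on normoxia 1, 2 and 3, and bmo-miR-1175-3p_R-1_1ss23AC had 36.5, 78.0 and 1029. Both were high on normoxia 3. The probe hme-miR-2788-3p had 20.5, 718.5 and 1608 units, while its insect cluster partner ame-miR-193 had 336.5, 1109 and 607.8. The first was highest on normoxia 3 and the second on normoxia 2. These units are not scaled between arrays. After normalization ame-miR-193 was far more even, at 9.27, 9.74 and 9.61, against 6.83, 9.13 and 10.90 for hme-miR-2788-3p.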

How the data were processed

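Per the labels, RNA of 4 pooled tissues was labelled with Cy3 for LC Sciences arrays, 1 per sample. The scanner tables deposited by the authors give a linear median intensity per spot, not yet corrected for background, as the signal of empty spots shows. Their deposited value table holds linear intensity too, after a subtraction and a scaling with steps not given in the sources used here. Over the 316 probes detected on all normoxia arrays it correlated with the background-subtracted scanner values at r from 0.998 to 0.999 (log2), with median ratios of 1.31, 0.617 and 1.02 on normoxia 1, 2 and 3, and it served as an alternative. The medians of its columns were 4.37, 4.11 and 6.44, and 0 of its columns belonged to other series.

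Of 3968 spots per array, 2546 were miRNA probes and 1130 were empty. Background was the median of the 20 nearest empty spots. Levels were computed with limma 3.58.1 in R 4.3.3 (normexp, offset 50, then quantile normalization over the 3 normoxia arrays and log2), with control spots left out after the background step. The offset sets a floor of 5.64. Detection used 3 standard deviations of the empty spots. On simulated arrays of the same layout (2346 probes at background), signals of 150 units or more were detected on all 3 arrays for 100.0% of 160 probes. Signals of 50 units, below the limits of normoxia 2 and 3, were detected for 0 of 40, and background probes for 0%. The simulated noise was drawn from the empty spots that also set the limit. These last 2 results thus follow largely from the setup and do not bound false detection. The real probes had median background-subtracted intensities of 14.8, 57.15 and 1.03 units on normoxia 1, 2 and 3. On normoxia 2 that is close below the limit of 67.6.

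Groups were taken from the titles. The 3 arrays form 1 group, so no test between groups was made, and the number of arrays limits the precision. Named probes followed a rule: the brightest of the 20 brightest stem and arm combinations, the brightest of up to 4 stems per list, the 5 with the largest range, and the 3 on each side of the detection limit. Other probes were named as members of a described group. The probes, lists and rule were chosen with earlier results of these data known, and the groups of near-identical probes, the GAGAGA run and the search for single low spots were chosen after seeing these values. Alternatives covered the limit, the background, the scaling, the offset and single arrays left out. Figures were drawn with matplotlib 3.10.9.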

Additional observations from a re-analysis of the deposited data

Results flagged for a closer look

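The arrays also carry control reporters for a zebrafish 5S ribosomal RNA, 4 spots each, which no comparison above uses, and 3 of the 6 reporters gave a median signal above the detection limit on every normoxia array. The reporter dre-5S-b3 had medians of 2311, 828.0 and 251.1 background-subtracted intensity units on normoxia 1, 2 and 3. For dre-5S-b2 the medians were 555.2, 1184 and 185.7 units, and for dre-5S-b4 they were 535.7, 804.8 and 324.1 units. The limits were 35.6, 67.6 and 94.5 units. All 3 reporters were lowest on normoxia 3. The other 3 reporters had medians at or below 46.9 units. That highest median, of dre-5S-b5 on normoxia 1, was above the limit of 35.6 units there, with 3 of 4 spots above it.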

How the results depend on the processing

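No paired analysis was possible because the 3 arrays form a single group and no test between groups was made. The 316 probes detected on all 3 arrays became 340 at 2 and 286 at 5 standard deviations, 405 with a robust standard deviation and 313 with 1 background per array, and ranged from 319 to 422 with 1 array left out. The count detected on none depended on the limit, with 1411 as reported, 781 at 2 standard deviations and 448 with a robust one (1531, 1978 and 1422 without normoxia 1, 2 and 3). The 65 stems became 101 with a robust standard deviation, and 68, 67 and 126 without normoxia 1, 2 and 3. The count of bright probes, 75, was 38 with the 50 brightest and 167 with the 200 brightest, and ranged from 81 to 89 with 1 array left out. The deposited value table also gave 75, of which 74 were the same probes. The median SD of 0.28 was 0.57 without scaling, and ranged from 0.16 to 0.27 with 1 array left out. The median level of the 86 named probes, 9.49, ranged from 9.27 to 9.91 with 1 array left out. The share of signal of the 10 brightest probes, 25.3% on average, ranged from 23.7% to 27.1% with 1 array left out. Arm counts of 19 and 21 ranged from 19 to 20 and 21 to 22 with 1 array left out. Without an array, the largest shift of a named probe was 2.64 (log2). Over the other scalings and offsets and the deposited table, their rank correlation with the reported levels was at least 0.995. That correlation covers a wide range of levels and does not show that single levels held. Of the 86 named probes, 45 stayed within their own SD with the deposited table, where shifts reached -1.02. Without normoxia 1, 2 and 3 the counts were 50, 40 and 69. Detection shares by probe property at 5 standard deviations stayed within 1.5 times the reported ones. Signals between 50 and about 150 units are where detection is uncertain, and the causes of the changes above were not tested.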
